A study of Rattus norvegicus with 9 samples.

Results

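The 9 genes described here mark or specify nonpeptidergic and other C-fiber sensory neurons, though Isl1 and Pou4f1 are shared by most sensory neurons. The 9 were followed in RNA-Seq libraries of rat dorsal root ganglia (DRGs), namely Mrgprd, Lpar3, Lpar5, Runx1, Th, Slc17a8, Prph, Isl1 and Pou4f1. They were chosen by symbol from the 20413 genes listed, and all 9 were found and passed the filter on low values. The ipsilateral L4-6 DRGs, which supply the hind limb, were taken on day 10 from male Sprague Dawley rats in 3 groups with 3 libraries each. The chronic post-ischemia pain (CPIP) group had a tight O-ring around one ankle for a period of ischemia that was followed by reperfusion. The Sham group went through anesthesia and ring placement with no ischemia. The CPIP+EA group had the CPIP procedure and electroacupuncture (EA) with needles in both hind limbs once daily for 10 days. No group received needles without current, and the whole ganglion was sequenced, so that the libraries hold neurons, glia, vessel cells and leukocytes together.

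C-fiber neurons are small sensory neurons with unmyelinated axons that carry pain, itch, temperature and gentle touch. The nonpeptidergic class lacks the pain peptides of its peptidergic counterpart and is known for the receptor Mrgprd and for the transcription factor Runx1, which is needed for its identity. A further class, the C-fiber low-threshold mechanoreceptors (C-LTMRs), responds to light touch and is known for Th and Slc17a8 in rodents. Nerve injury is known to lower many subtype genes of sensory neurons while injury genes rise, and the comparison of CPIP with Sham asks whether the model moved these genes, and that of CPIP+EA with CPIP whether EA did.

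Levels are given as FPKM, a fragment count divided by transcript length and by library size, so that genes can be compared with each other. Summed over genes, the libraries held 445647 to 482940 FPKM. The axon injury response genes, a list of 12 genes such as Atf3 and Gal, were all higher in CPIP than in Sham past the threshold given below. Of all genes tested, 0.355% passed it. With a library left out in turn, 10 to 12 of the list passed. The list was chosen with earlier results of these data known. The summed FPKM of the 12 genes was 67.9 to 81.3 in Sham, 618 to 699 in CPIP and 696 to 746 in CPIP+EA. CPIP+EA replicate 3 stood apart by its leukocyte genes, with a summed FPKM of 267 for 12 macrophage and leukocyte markers against 123 to 187 in the other 8 libraries, and of 645 against 35.8 to 272 for 9 neutrophil markers.

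Levels covered a wide range. Prph, which encodes the intermediate filament peripherin of small-diameter neurons, had a mean over the 9 libraries of 1142 FPKM and stood at percentile 99.9 of the genes tested. Pou4f1 (36.7 FPKM) and Isl1 (28.4 FPKM), the transcription factors shared by most sensory neurons, came next. Mrgprd (11.2 FPKM) and Runx1 (10.9 FPKM) followed, and their libraries overlapped in each group. Below them were the lysophosphatidic acid receptors Lpar5 (4.07 FPKM) and Lpar3 (3.36 FPKM), whose libraries overlapped in CPIP and CPIP+EA but not in Sham. Slc17a8 (0.767 FPKM), the vesicular glutamate transporter of C-LTMRs, and Th (0.288 FPKM), tyrosine hydroxylase, were lowest. Th stood at percentile 7.97 of the genes tested.

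**Figure D1:**
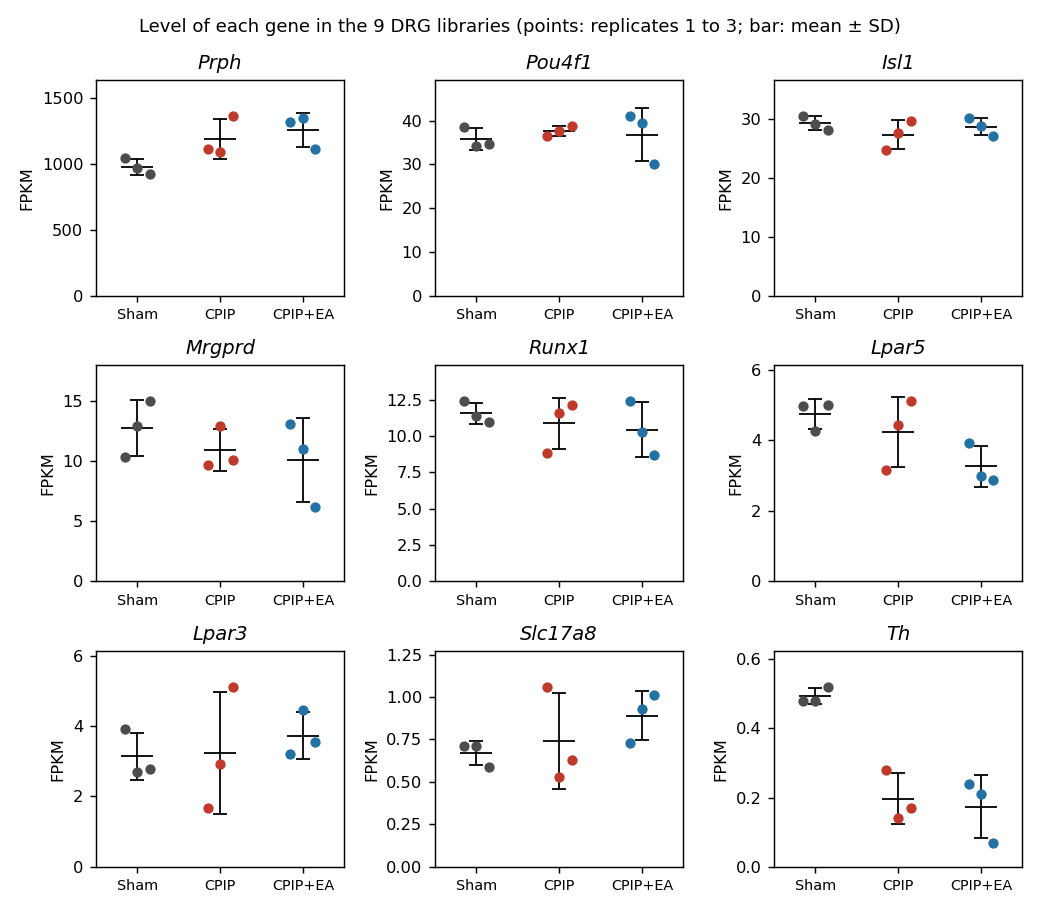
Level of each of the 9 genes in FPKM (vertical axis, from 0) in the Sham, CPIP and CPIP+EA groups, with 1 point per library (replicates 1 to 3 from left to right) and the mean with SD as a bar. The 3 Sham libraries of Th lie between 0.48 and 0.52, above all 6 libraries of the other groups, and those of Prph lie between 919.91 and 1043.59, below them.

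Of the 9 genes, none was a differentially expressed gene (DEG) for CPIP versus Sham in the limma fit, where 0.355% of all genes tested were called (adjusted p under 0.01 and at least 1.5-fold). At an unadjusted limma p under 0.05 there was 1 of 9, Th, beside 8.66% of all genes tested. The groups did not overlap for 2 of 9, Th and Prph, beside 15.9% of all genes tested. The median log2 fold change (log2FC) of the 9 was -0.096, and that of all genes tested was -0.0064. Omitting CPIP replicate 1 gave a median of the 9 of 0.0047, omitting CPIP replicate 3 gave -0.17, and it was -0.20 with the pan-neuronal centring described below. The log2FC values compare log2(FPKM + 0.5) values, so they understate differences in weakly expressed genes such as Th.

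Th had the largest relative difference. It read 0.48, 0.48 and 0.52 FPKM across the Sham libraries, 0.28, 0.14 and 0.17 across the CPIP libraries, and 0.24, 0.21 and 0.07 across the CPIP+EA libraries. Every Sham library was above every library of the other groups, and CPIP and CPIP+EA overlapped. The mean was 0.493 ± 0.0231 FPKM in Sham (SD, n = 3), 0.197 ± 0.0737 in CPIP and 0.173 ± 0.0907 in CPIP+EA, and the ratio of mean FPKM was 0.399 for CPIP versus Sham and 0.351 for CPIP+EA versus Sham. The log2FC for CPIP versus Sham was -0.52 (standard error 0.14), with an unadjusted limma p of 0.00426 and an adjusted p of 0.199 (alternatives gave 0.115 to 0.514). Adding 0.1 in place of 0.5 before taking logs gave -1.03, and adding 1 gave -0.32. Th could not be tested with a filter at a mean FPKM of 1. In whole ganglia, fewer cells of a type and less RNA per cell cannot be told apart.

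Th is also the first enzyme of noradrenaline synthesis in sympathetic neurons, whose fibers reach the ganglion, so 10 markers of these neurons were read beside it. Of their defining markers, Dbh, which makes noradrenaline, was between 0 and 0.13 FPKM, and the transcription factor Hand2 was listed at 0 in all 9 libraries. Of the 10 markers, 6 could be tested and 0 reached an unadjusted limma p under 0.05 in any comparison. Omitting CPIP+EA replicate 3 brought 2 of them lower for CPIP versus Sham and 1 higher for CPIP+EA versus CPIP at that level, and omitting CPIP+EA replicate 1 brought 1 lower for CPIP versus Sham and 1 for CPIP+EA versus Sham. Their summed FPKM was 30.2 to 36.3 in Sham, 27.0 to 30.8 in CPIP and 22.2 to 35.2 in CPIP+EA, most of it from the acetylcholine receptor subunit Chrna3 and the vesicular amine transporter Slc18a2. Slc18a2 had 8.65, 7.59 and 7.87 FPKM in Sham, 6.89, 6.63 and 6.65 in the CPIP libraries, and 8.17, 7.80 and 6.03 in CPIP+EA, so that CPIP lay below Sham without overlap, with an unadjusted limma p of 0.0602. Slc6a2, the noradrenaline transporter, lay the other way, at 0.27, 0.3 and 0.22 FPKM in Sham against 0.36, 0.5 and 0.33 in CPIP, with an unadjusted limma p of 0.132. Of the 6 markers tested, 4 had a log2FC above 0 and 2 below 0 for CPIP versus Sham.

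Of the 9 other genes of C-LTMRs, 2 had a log2FC above 0 and 7 below 0 for CPIP versus Sham, with a median of -0.066. Of all genes tested, 8236 were above and 8950 below 0. Without CPIP replicate 1 the 9 genes split into 4 above and 5 below 0, with a median of -0.033. For CPIP+EA versus Sham, 1 was above and 8 below 0, beside 8671 and 8515 of all genes tested. Of the 9 genes listed beside Th and Slc17a8, 0 passed the threshold for CPIP versus Sham, while 1 was higher and 2 were lower at an unadjusted limma p under 0.05, beside 4.61% and 4.06% of all genes tested. The lower count was 1 without Sham replicate 1 or 2 or any one CPIP library. Fam19a4, a secreted protein known from C-LTMRs, had 3.03, 3.48 and 4.52 FPKM in Sham, 5.77, 5.08 and 7 in the CPIP libraries, and 6.49, 6.06 and 4.86 in the CPIP+EA libraries. Its Sham libraries were below all others, with an unadjusted limma p of 0.00414 and an adjusted p of 0.197 for CPIP versus Sham. The transcription factor Zfp521 had 6.73, 6.56 and 6.57 FPKM in Sham and 5.59, 5.5 and 5.64 in CPIP, with an adjusted limma p of 0.318. Slc17a8 itself read 0.71, 0.71 and 0.59 FPKM across the Sham libraries, 1.06, 0.53 and 0.63 across the CPIP libraries, and 0.73, 0.93 and 1.01 across the CPIP+EA libraries. CPIP replicate 1 was its highest library and CPIP replicate 2 its lowest. Sham and CPIP+EA did not overlap for Slc17a8, and its log2FC between them was 0.25, with a 95% confidence interval from -0.13 to 0.62 and an unadjusted limma p of 0.177.

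Prph differed in the opposite direction from Th. It read 1043.59, 970.12 and 919.91 FPKM across the Sham libraries, 1111.17, 1092.13 and 1365.05 across the CPIP libraries, and 1313.90, 1350.06 and 1109.67 across the CPIP+EA libraries. The Sham libraries were below all others, and CPIP and CPIP+EA overlapped. The log2FC was 0.28 for CPIP versus Sham (95% confidence interval from -0.0083 to 0.56, unadjusted limma p of 0.0557) and 0.36 for CPIP+EA versus Sham (0.075 to 0.64, unadjusted limma p of 0.0189, adjusted p of 0.284). Without CPIP replicate 3, its highest library, the former was 0.17. Of 14 pan-neuronal genes, 3 were higher and 2 lower in CPIP at an unadjusted limma p under 0.05, where the shares of all genes tested were again 4.61% and 4.06%. The lower count was 1 without Sham replicate 1 or 2, any one CPIP library or CPIP+EA replicate 2. The higher count was 4 without Sham replicate 1 or CPIP replicate 2. Gap43, a growth-cone protein, was the 1 DEG among the 14, beside 0.355% of all genes tested. The list held 0 DEGs when any one Sham library, CPIP replicate 1 or CPIP replicate 3 was omitted. The summed FPKM of the list was 4758 to 5408 in Sham, 5636 to 6127 in CPIP and 5426 to 6614 in CPIP+EA. With the log2 values centred on the pan-neuronal genes, which shifted the median of all genes tested to -0.11, the log2FC of Prph for CPIP versus Sham was 0.17. The part of the pan-neuronal genes in the Prph result was not tested further.

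The sequences before the starts of Th and Prph are shown because these were the members whose Sham libraries lay apart from both other groups. They are 250 bases before and 50 bases from the start, 5′ to 3′ on the strand of the gene, from RefSeq for the rat assembly GRCr8. Th is at chr1:207508169-207508468 on the minus strand and Prph at chr7:132097039-132097338 on the plus strand. Capitals mark the cyclic AMP response element core TGACGTCA, searched on both strands, and the TATA box TATAAA, searched on the strand of the gene.
Th: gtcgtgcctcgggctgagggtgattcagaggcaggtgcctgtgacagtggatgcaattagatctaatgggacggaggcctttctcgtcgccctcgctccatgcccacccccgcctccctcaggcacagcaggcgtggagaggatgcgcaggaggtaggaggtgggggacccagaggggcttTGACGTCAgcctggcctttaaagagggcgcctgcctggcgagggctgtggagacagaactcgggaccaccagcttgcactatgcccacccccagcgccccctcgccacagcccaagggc
Prph: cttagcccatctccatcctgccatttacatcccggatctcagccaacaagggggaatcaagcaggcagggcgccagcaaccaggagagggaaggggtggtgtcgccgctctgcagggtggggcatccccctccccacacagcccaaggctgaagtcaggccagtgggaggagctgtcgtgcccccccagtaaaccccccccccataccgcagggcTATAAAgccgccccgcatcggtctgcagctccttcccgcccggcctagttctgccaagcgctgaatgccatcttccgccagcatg
The Th sequence held TGACGTCA from base 69 before the start, as 1.83% of the 33469 promoters in the table did, and the Prph sequence held TATAAA from base 35 before it, as 8.8% did. The core letters bound by RUNX factors, TGTGGT, were searched on both strands and found in 17.3% of all promoters. Of the 8 members with an entry, 1 held them, Slc17a8, on the opposite strand from base 103 before its start. No marked match overlapped another.

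**Figure D2:**
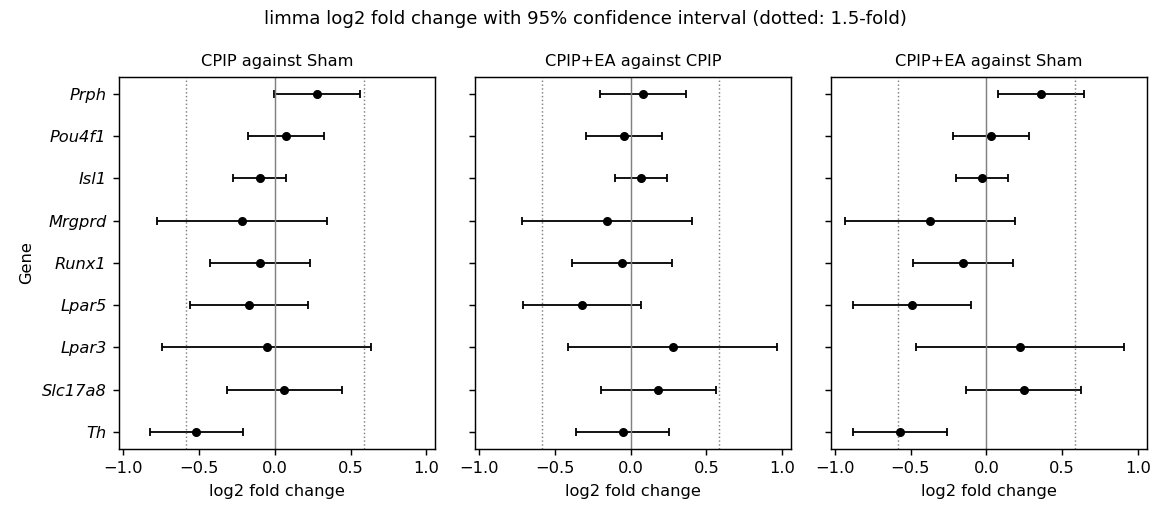
Log2 fold change of the 9 genes (horizontal axis, log2 of FPKM + 0.5) for the 3 comparisons, with the limma estimate as a point and its 95% confidence interval as a bar. Dotted lines mark 1.5-fold. For CPIP versus Sham the interval of Th lies below 0, and those of the other 8 genes include 0.

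Mrgprd, the receptor that defines the main nonpeptidergic class, read 10.36, 12.93 and 14.97 FPKM across the Sham libraries, 9.70, 12.88 and 10.08 across the CPIP libraries, and 13.04, 10.99 and 6.19 across the CPIP+EA libraries. The groups overlapped in each comparison, and the lowest value was that of CPIP+EA replicate 3. The log2FC for CPIP versus Sham was -0.21 (95% confidence interval from -0.77 to 0.34, adjusted limma p of 0.923), so that a fall by 1.5-fold lies within the interval. It was -0.35 without Sham replicate 1 and -0.096 without Sham replicate 3. For CPIP+EA versus CPIP it was -0.16 (-0.72 to 0.40), and 0.14 without CPIP+EA replicate 3. Runx1, the transcription factor known to act upstream of Mrgprd, read 12.37, 11.36 and 10.93 FPKM across the Sham libraries, 8.85, 11.59 and 12.13 across the CPIP libraries, and 12.38, 10.27 and 8.66 across the CPIP+EA libraries. Its log2FC was -0.096 for CPIP versus Sham (-0.43 to 0.23) and -0.056 for CPIP+EA versus CPIP (-0.38 to 0.27), and neither group pair was separated. Runx1 is also used by blood cells, and the part of leukocyte RNA in its level was not tested.

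Among the 24 other genes of nonpeptidergic and itch neurons, 23 could be tested. Of these, 1, Gfra1, was a DEG for CPIP versus Sham, beside 0.355% of all genes tested. This receptor subunit for the growth factor GDNF rose from 52.1, 47.3 and 38.6 FPKM in Sham to 81.3, 84.6 and 83.9 in CPIP and was at 84.7, 86.6 and 76.9 in CPIP+EA. The log2FC for CPIP versus Sham was 0.86 (standard error 0.10, adjusted limma p of 0.00470, between 0.00383 and 0.0318 over the alternatives), and the call was kept in 9 of 21 alternatives. It was not kept without Sham replicate 2, without any one CPIP library, or without CPIP+EA replicate 1 or 2. At an unadjusted limma p under 0.05, 1 of the 23 was higher and 3 were lower, beside 4.61% and 4.06% of all genes tested. With a library left out the lower count ran from 1 (without CPIP replicate 1) to 5 (without CPIP+EA replicate 3). The itch receptor Mrgprx1 read 20.5, 18.1 and 13.7 FPKM across the Sham libraries, 11.2, 8.64 and 10.2 across the CPIP libraries, and 9.71, 9.77 and 6.46 across the CPIP+EA libraries, with a log2FC for CPIP versus Sham of -0.76 and an adjusted limma p of 0.164. The 3 most abundant genes of the list, Synpr, a synaptic vesicle protein, P2rx3, the ATP receptor of nonpeptidergic neurons, and Cd55, a complement regulator, had log2FC values of 0.0056, 0.027 and -0.18 for CPIP versus Sham. Of the 23 genes, 8 were above and 15 below 0 in that comparison, with a median of -0.079. The median was -0.058 without CPIP replicate 1 and -0.134 without CPIP replicate 3. For CPIP+EA versus CPIP 6 were above and 17 below 0, with a median of -0.16, but this split turned when CPIP+EA replicate 3 was omitted, to 15 above and 8 below 0 with a median of 0.048.

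The lysophosphatidic acid receptors sense a lipid messenger released by injured tissue. Lpar5 read 4.97, 4.26 and 5.00 FPKM across the Sham libraries, 3.15, 4.42 and 5.10 across the CPIP libraries, and 3.92, 2.97 and 2.87 across the CPIP+EA libraries. CPIP spanned the values of Sham, whereas CPIP+EA lay below Sham without overlap. The log2FC for CPIP+EA versus Sham was -0.49 (95% confidence interval from -0.88 to -0.10, unadjusted limma p of 0.0187, adjusted p of 0.282), and for CPIP+EA versus CPIP -0.32 (-0.71 to 0.067). The latter was -0.49 without CPIP replicate 1 and -0.19 without CPIP replicate 3. Lpar5 is also used by leukocytes, whose summed markers were 123 to 153 FPKM in Sham and 139 to 267 in CPIP+EA, and their part in this result was not tested. Lpar3, known from the same nonpeptidergic neurons as Mrgprd, read 3.91, 2.70 and 2.79 FPKM across the Sham libraries, 1.67, 2.91 and 5.11 across the CPIP libraries, and 3.19, 4.46 and 3.53 across the CPIP+EA libraries. The CPIP libraries held both its lowest and its highest value, a coefficient of variation of 53.9% against 21.5% in Sham and 17.6% in CPIP+EA. Its log2FC for CPIP versus Sham, -0.054, shifted to -0.40 when CPIP replicate 3 was omitted and to 0.28 when CPIP replicate 1 was.

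Isl1 and Pou4f1, which set up and maintain sensory neuron identity, varied least. Isl1 read 30.54, 29.12 and 28.15 FPKM across the Sham libraries, 24.73, 27.54 and 29.70 across the CPIP libraries, and 30.09, 28.75 and 27.16 across the CPIP+EA libraries. Its highest library was 1.23 times its lowest. The log2FC of Isl1 was -0.10 for CPIP versus Sham (95% confidence interval from -0.27 to 0.071) and 0.071 for CPIP+EA versus CPIP (-0.10 to 0.24), so that 1.5-fold changes lie outside both intervals. Pou4f1 read 38.57, 34.18 and 34.57 FPKM across the Sham libraries, 36.44, 37.66 and 38.66 across the CPIP libraries, and 41.12, 39.35 and 30.00 across the CPIP+EA libraries. The groups overlapped, and CPIP+EA replicate 3 was again the lowest. The intervals of Pou4f1, -0.18 to 0.32 for CPIP versus Sham and -0.29 to 0.21 for CPIP+EA versus CPIP, also exclude 1.5-fold. Of 18 other transcription factors of sensory neurons, 17 could be tested, 0 passed the threshold in any comparison, and 0 reached an unadjusted limma p under 0.05 for CPIP versus Sham. Without CPIP replicate 3, as without CPIP+EA replicate 3, 1 was lower at that level for CPIP versus Sham. With all 9 libraries 1 was lower at that level for CPIP+EA versus CPIP, Maf, with an unadjusted limma p of 0.0141, beside 4.29% of all genes tested in either direction. This count was 3 without CPIP+EA replicate 1 and 0 without CPIP replicate 3 or CPIP+EA replicate 2. For CPIP+EA versus Sham, with all 9 libraries, 2 were lower, Ldb2 and Mafa, with an unadjusted limma p of 0.0128 and 0.0146, beside 5.63% of all genes tested.

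For CPIP+EA versus CPIP, 0 of the 9 genes passed the threshold in the limma fit, as did 0.0% of all genes tested, and 0 had an unadjusted p under 0.05, beside 4.29% of all genes tested. The groups overlapped for all 9, beside 8.23% of all genes tested whose groups did not. Their median log2FC was -0.042, with 0.012 for all genes tested, and it was 0.11 without CPIP+EA replicate 3. That library was the lowest of the 9 for 5 members (Pou4f1, Mrgprd, Runx1, Lpar5 and Th), beside 14.1% of all genes tested. Its pan-neuronal sum, 5426, was below the 6614 and 6511 of the other CPIP+EA libraries, and its sum for the 24 other nonpeptidergic genes, 764, was the lowest of the 9. The part of its leukocyte content in these values was not tested.

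**Figure D3:**
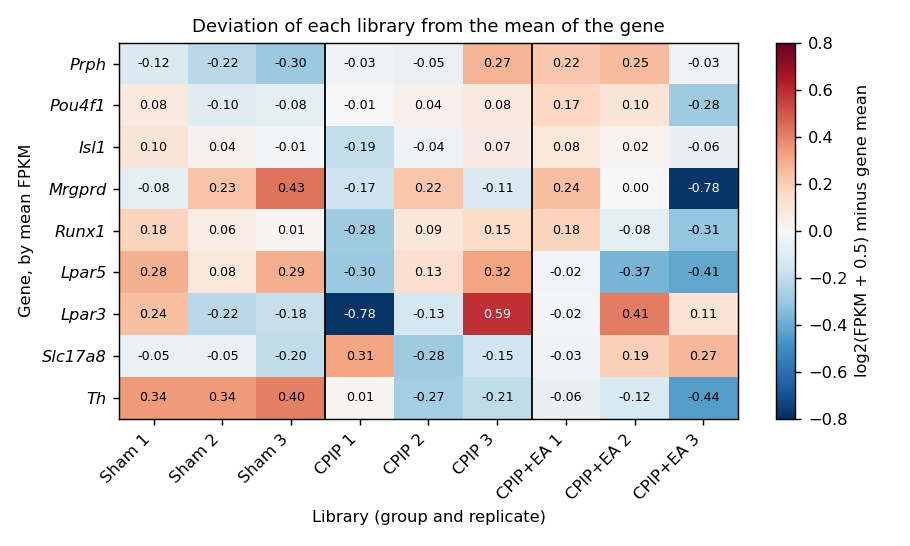
Deviation of each library from the mean of the gene in log2(FPKM + 0.5) (color scale from -0.8, blue, to 0.8, red), with genes ordered by mean FPKM in rows and the 9 libraries in columns. CPIP+EA replicate 3 is at -0.78 for Mrgprd and -0.44 for Th, and the Sham libraries of Th are at 0.34, 0.34 and 0.40.

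For CPIP+EA versus Sham, 0 of the 9 passed the threshold in the limma fit, beside 0.483% of all genes tested. Th and Lpar5 were lower and Prph higher at an unadjusted limma p under 0.05, 3 of 9 beside 12.2% of all genes tested, and the groups did not overlap for 4 of 9, these and Slc17a8, beside 16.2%. Th had a log2FC of -0.57 and an adjusted limma p of 0.0993 (alternatives gave 0.0652 to 0.261). Without Sham replicate 3 or without CPIP+EA replicate 2, 1 of the 9 was left at an unadjusted limma p under 0.05. This comparison shares the Sham libraries with that of CPIP and Sham, and the CPIP+EA libraries with that of CPIP+EA and CPIP. Of the 23 other nonpeptidergic genes, 1 was higher and 8 lower at an unadjusted limma p under 0.05, beside 6.59% and 5.63% of all genes tested. All 8 had their lowest value of the 9 libraries in CPIP+EA replicate 3, as did 14.1% of all genes tested. These 8 were picked as lower in CPIP+EA, so a lowest value in that group follows in part from the choice. CPIP+EA replicate 3 also had the highest leukocyte sum, and the part of its leukocyte content was not tested. Omitting that library left 3 higher and 5 lower, beside 7.18% and 6.62% of all genes tested, and omitting Sham replicate 1 left 1 higher and 5 lower. Among the lower ones was Cd55, at 170, 177 and 130 FPKM in Sham and 117, 123 and 92.0 in CPIP+EA, with an adjusted p of 0.218.

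The neuron classes beside these were read for comparison. Of the 9 peptidergic nociceptor genes, 1, the injury-induced peptide Gal, was a DEG for CPIP versus Sham, beside 0.355% of all genes tested. The median log2FC of the list was 0.020, or -0.088 when CPIP replicate 3 was omitted. The list held 2 DEGs when CPIP+EA replicate 1 or 3 was omitted, and the peptide gene Adcyap1 had a log2FC of 0.92 and an adjusted limma p of 0.0125 in the fit of all 9 libraries. Of the 12 large-fiber genes 0 were DEGs, and the median was -0.11. The 8 satellite glial, 7 Schwann cell, 12 leukocyte, 9 neutrophil and 10 vessel cell genes held 0 DEGs for CPIP versus Sham, with medians of 0.052, 0.069, 0.28, 0.095 and -0.080. With a library omitted in turn these lay between -0.0073 and 0.085, -0.069 and 0.30, 0.20 and 0.39, -0.30 and 0.71, and -0.13 and 0.067, so that all but the leukocyte median changed sign. With all 9 libraries, 2 leukocyte genes had an unadjusted limma p under 0.05, beside 8.66% of all genes tested. The count was 1 without Sham replicate 1 or CPIP replicate 2 or 3. It was 4, all higher, without CPIP+EA replicate 3, and 2 higher and 2 lower without Sham replicate 3. For CPIP+EA versus CPIP the medians of these 5 lists were 0.084, -0.44, 0.13, 0.62 and -0.10, also with 0 DEGs. Omitting CPIP+EA replicate 3 gave -0.0030, -0.70, -0.065, -0.069 and -0.22, so that the satellite glial, leukocyte and neutrophil medians turned their sign. With all 9 libraries, 2 satellite glial genes and 1 Schwann cell gene had an unadjusted limma p under 0.05, beside 4.29% of all genes tested. These counts shifted with single libraries. The Schwann cell count was 3 without CPIP replicate 3 and 0 without CPIP replicate 1 or 2 or CPIP+EA replicate 1 or 2. The satellite glial count was 1 without CPIP+EA replicate 2.

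**Figure D4:**
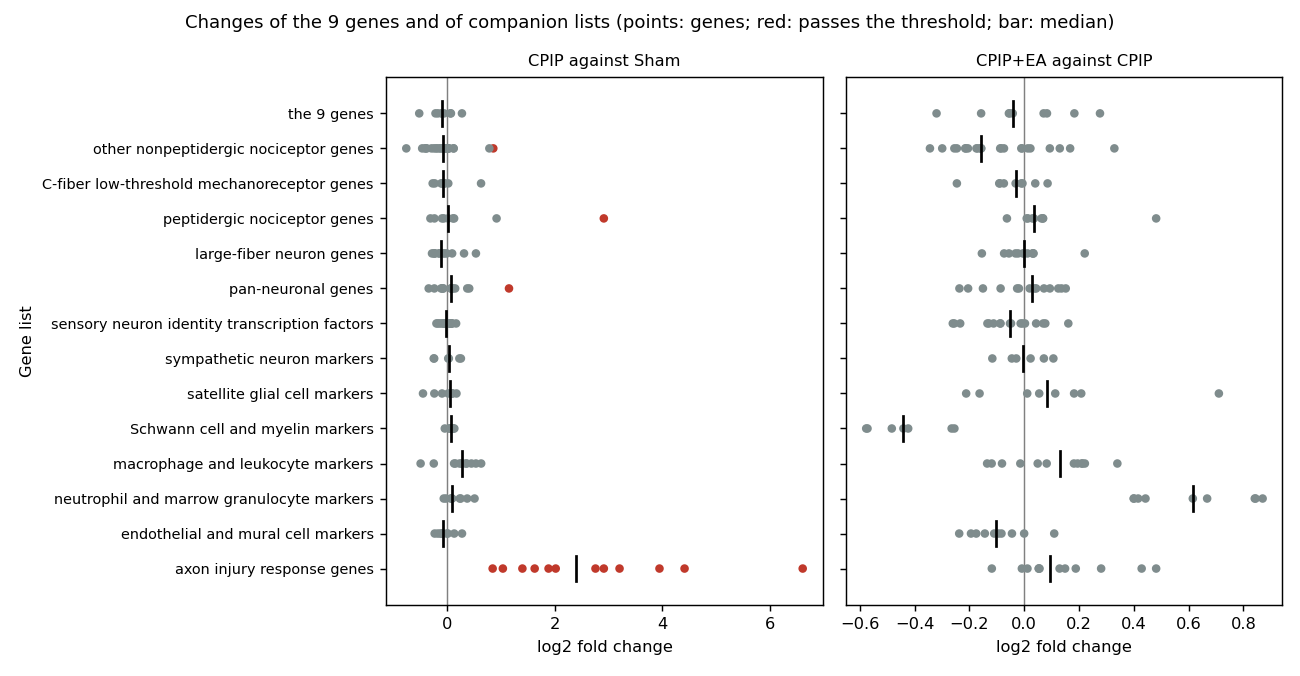
Log2 fold change (horizontal axis) of the genes of each list (1 point per gene, red where the gene passed the threshold) for CPIP versus Sham and for CPIP+EA versus CPIP, with the median as a vertical bar. The 9 genes have medians of -0.096 (0.0047 if CPIP replicate 1 is omitted) and -0.042 (0.11 if CPIP+EA replicate 3 is) and no red point. The 12 axon injury response genes are all red for CPIP versus Sham (10 to 12 pass if a library is omitted). The horizontal scales of the panels differ.

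The genes whose pattern over the 9 libraries was most like Mrgprd, out of 13914 with a mean FPKM of at least 1, were Brsk2, Trabd2b and Slc25a44, with Pearson r of 0.950, 0.941 and 0.937. Each was lowest in CPIP+EA replicate 3, at 11.8, 2.49 and 8.14 FPKM. Mrgprd was lowest there too, so this follows in part from how the genes were picked. Those most like Th were Calml4, Shf and Epha6, with r of 0.968, 0.963 and 0.961. Calml4, a calmodulin-like protein, read 24.2, 26.8 and 28.7 FPKM across the Sham libraries, 19.9, 18.2 and 19.1 across the CPIP libraries, and 20.5, 19.5 and 16.8 across the CPIP+EA libraries. These genes were picked as the highest of many correlations over few libraries, and r is given as the measure of likeness.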

How the data were processed

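RNA-Seq libraries of ipsilateral L4-6 DRGs were available for the Sham, CPIP and CPIP+EA groups, with 3 libraries in each. The authors removed reads with adaptors, with many unknown bases or of low quality with SOAPnuke, and deposited 1 table of FPKM, with a value for every gene in each library, given to 2 decimals. The aligner, genome build and annotation are not given in the sources used here. Further columns of the deposited table hold log2 ratios with P-values and Q-values from the authors' own group comparisons, which were not used.

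The 9 genes were found by symbol. The test was that of limma 3.58.1 under R 4.3.3 (eBayes with trend) on log2(FPKM + 0.5), in 1 fit of the 9 libraries without a covariate. It covered the 17187 genes whose mean reached 0.1 FPKM. P-values were two-sided and adjusted by the Benjamini-Hochberg method over all genes tested. Genes were called differentially expressed (DEGs) at the study's limits, an adjusted p under 0.01 together with a fold of 1.5 or more, or of 0.667 or less. At these limits the study reported DEGs for CPIP versus Sham and for CPIP+EA versus CPIP with its own test. The limma fit called 61 and 0 genes there, so its counts are not those of the study. FPKM values hold no read counts, so the depth behind a value is unknown, and precision rests on having 3 rats per group. The fit was checked on simulated data. Python 3.11.15, numpy 2.4.6, pandas 2.3.3, scipy 1.17.1 and matplotlib 3.10.9 were used for tables and plots.

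Of the companion lists (other nonpeptidergic, C-LTMR, peptidergic, large-fiber, pan-neuronal, transcription factor, sympathetic, satellite glial, Schwann cell, leukocyte, neutrophil, vessel and axon injury genes), Gfra2 and Gal stand in 2 each. The 9 genes and the lists were chosen with earlier results of these data known. Besides the 9 genes, names follow a rule: in each list the 3 genes with the highest mean, the 2 with the smallest p and the DEGs may be named, and for Mrgprd and Th the 3 genes with the highest Pearson correlation. Companion genes outside the rule were chosen after their values were seen. Same-numbered libraries of different groups did not deviate together (Pearson r of their deviations from -0.24 to 0.30, over 0.1 in 2 of 9 pairs), so no pairing was used. Alternatives were other pseudocounts, filters and scalings, dropping the trend or making it robust, the replicate block, leaving the group not compared out of the fit, and each library left out in turn.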

Additional observations from a re-analysis of the deposited data

How the results depend on the processing

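Of the 9 genes, 0 passed the threshold under each of the alternatives in any of the 3 comparisons, an adjusted p under 0.05 with no fold limit included. The number at an unadjusted limma p under 0.05 between CPIP and Sham was 2 without the trend and 2 with the robust trend, where Prph joined Th. With a library left out it was 1 to 2 between CPIP and Sham (2 without Sham replicate 1 or CPIP+EA replicate 3), 0 to 2 between CPIP+EA and CPIP (2 without CPIP replicate 1, and 1 without CPIP replicate 3 or CPIP+EA replicate 1) and 1 to 3 between CPIP+EA and Sham (1 without Sham replicate 3 or CPIP+EA replicate 2). The median of the 9 between CPIP+EA and CPIP lay between -0.13 (without CPIP+EA replicate 1) and 0.11 (without CPIP+EA replicate 3). With the replicate block the numbers at an unadjusted p under 0.05 were 1, 0 and 3, and it changed no call of the 9 genes. Gfra1 was not a DEG for CPIP versus Sham without a filter, on the TPM scale, with pan-neuronal centring, without the trend, with the block or with only the 2 groups compared. Of the libraries, 2 of 9 correlated best with one of their own number. The cause of these shifts was not tested.

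Of 561 log2 fold changes of single members under the alternatives, 541 kept their direction and their side of the threshold, and 20 turned their sign. With pan-neuronal centring, Slc17a8 (-0.046) and Pou4f1 (-0.036) between CPIP and Sham and Pou4f1 (-0.074) between CPIP+EA and Sham turned. With a library left out, the ranges between CPIP and Sham were -0.40 to 0.28 for Lpar3, -0.30 to 0.0047 for Lpar5, -0.18 to 0.038 for Runx1 and -0.12 to 0.18 for Slc17a8. Between CPIP+EA and CPIP they were -0.37 to 0.14 for Mrgprd, -0.061 to 0.62 for Lpar3, -0.19 to 0.065 for Runx1, -0.13 to 0.062 for Th and -0.13 to 0.097 for Pou4f1. Between CPIP+EA and Sham they were -0.065 to 0.0077 for Isl1 and -0.055 to 0.17 for Pou4f1. Of 819 counts of DEGs in the companion lists, 41 moved to a lower and 5 to a higher number by over 1.5 times. Th and Slc17a8 gave no value with a filter at a mean FPKM of 1.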

Other observations

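Set against the summed FPKM of the 14 pan-neuronal genes, 5 of the 9 members (Lpar5, Runx1, Th, Isl1 and Pou4f1) lay lower in every CPIP library than in every Sham library, as did 34.1% of all genes tested. Per 1000 FPKM of that sum, Runx1 read 2.29, 2.28 and 2.30 across the Sham libraries, 1.53, 2.06 and 1.98 across the CPIP libraries, and 1.87, 1.58 and 1.60 across the CPIP+EA libraries. Isl1 read 5.65, 5.83 and 5.92 for Sham against 4.27, 4.89 and 4.85 for CPIP. Pou4f1 read 7.13, 6.85 and 7.27 for Sham against 6.28, 6.68 and 6.31 for CPIP. Lpar5 read 0.919, 0.853 and 1.05 for Sham against 0.543, 0.784 and 0.832 for CPIP. Of these 5, only Th was also apart as FPKM. Prph, at 193, 194 and 193 for Sham against 192, 194 and 223 for CPIP, overlapped on this scale. The sum was itself higher in every CPIP library than in every Sham library, with Uchl1, Tubb3 and Stmn2 as its most abundant genes, so a gene that keeps its FPKM has a lower share. Of the 14 genes in the sum, 8 had a log2FC above 0 and 6 below 0 for CPIP versus Sham. Among the former were Gap43 (1.15), Tubb3 (0.41) and Stmn2 (0.38), so the sum is not a fixed measure of neurons. This scale was chosen after the values were seen and no test was run on it.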
